A study of Mus musculus with 28 samples.

Results

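Globin mRNAs and Alas2, the transcripts of red cells and of their immediate precursors, were followed through brain RNA-seq libraries of mice with a humanized form of the splicing factor NOVA1. The set was given as a list of names: the adult α globin genes Hba-a1 and Hba-a2, the adult β globin genes Hbb-b1 and Hbb-b2, the embryonic globin genes Hba-x, Hbb-y and Hbb-bh1, and Alas2. All 8 were found among the 23038 genes of the deposited tables, and the list was applied by name, with no threshold on a measured value. A further row, Beta-s, is the tables' name for Hbb-bs, another adult β globin gene, and was read together with Hbb-b1 and Hbb-b2 as the Hbb copies. Hba-a1 and Hba-a2 were likewise summed as the Hba copies.

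Haemoglobin is a tetramer of α-like and β-like chains, each holding a haem group. Mouse embryos first use embryonic chains (ζ from Hba-x, ε-like chains from Hbb-y and βh1 from Hbb-bh1) in yolk-sac red cells, and change to adult α and β chains when blood formation moves to the fetal liver. Alas2 is the erythroid form of aminolevulinate synthase, which makes the first committed intermediate of haem. Reticulocytes, the youngest circulating red cells, still carry globin mRNA, so tissue that holds blood yields these transcripts.

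The mice carried the Nova1 I197V knock-in allele, which gives NOVA1 the human residue, on both chromosomes (Nova1 hu/hu), or had 2 wild-type alleles (Nova1 wt/wt); per the study's methods they were backcrossed to C57BL/6J, and females and males were used in equal number. Late in gestation, at E18.5 (days of embryonic age), midbrain was represented by 6 hu/hu and 6 wt/wt libraries, and at postnatal day 21 (P21) midbrain and cortex were each represented by 4 hu/hu and 4 wt/wt libraries, 28 in all. The tissue was dissected whole, with no sort of cell types, and whether blood was washed out before dissection is not given in the sources used here. The knock-in is germline, so blood cells carry it as well as neurons. Library totals ran from 18550922 to 45134998 counts, and the 8 genes with Beta-s took 0.0250% to 0.0725% of a library. The 5 neuronal markers summed to 3368 to 4500 TPM (counts per length of transcript, scaled to a common total), all 5 present as neural tissue would have them. Replicates are separate libraries, and p-values measure the spread between them.

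The α and β copies are shown first because their sequences set how far a read can be assigned. Hba-a1 and Hba-a2 lie on chromosome 11, and their coding sequences (GENCODE M21, build GRCm38) were identical at 425 of 426 bases. The only substitution was C381T, counted from the A of the Hba-a1 start codon, and it lies in the third coding exon, printed here 5′ to 3′ with the differing base in capitals.
Hba-a1 (chr11:32284263-32284388, plus strand): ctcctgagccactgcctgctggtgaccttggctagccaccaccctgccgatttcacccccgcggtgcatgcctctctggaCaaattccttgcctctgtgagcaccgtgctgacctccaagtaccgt
Hba-a2 (chr11:32297080-32297205, plus strand): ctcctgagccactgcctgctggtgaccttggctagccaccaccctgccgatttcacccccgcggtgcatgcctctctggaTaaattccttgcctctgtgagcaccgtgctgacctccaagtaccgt
The adult β genes of the reference chromosome 7, Hbb-bs and Hbb-bt, were identical at 440 of 441 coding bases, with C417T counted from Hbb-bs as the only substitution.
Hbb-bs (chr7:103826668-103826793, minus strand): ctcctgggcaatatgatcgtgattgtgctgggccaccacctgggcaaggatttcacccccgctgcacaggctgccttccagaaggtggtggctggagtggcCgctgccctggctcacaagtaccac
Hbb-bt (chr7:103812659-103812784, minus strand): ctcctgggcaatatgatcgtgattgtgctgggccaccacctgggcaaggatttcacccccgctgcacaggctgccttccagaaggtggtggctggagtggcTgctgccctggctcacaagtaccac
Of the 430 windows as long as a sequencing read in the Hba-a2 transcript, 291 (67.67%) occurred unchanged in Hba-a1, and of the 504 windows in the Hbb-bs transcript 306 (60.71%) occurred in Hbb-bt. In the other direction 50.61% of the Hba-a1 windows occurred in Hba-a2 and 52.85% of the Hbb-bt windows in Hbb-bs. C57BL/6 mice carry the β haplotype made of Hbb-bs and Hbb-bt. Hbb-b1 and Hbb-b2 are the adult genes of the other common haplotype, and the RefSeq table gives them positions outside the chromosome 7 cluster. The level of a single copy is therefore uncertain. The sums were used for every comparison, and single rows that are given beside them carry that uncertainty.

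The embryonic genes are distinct enough for reads to tell them from the adult copies. Coding identity was 61.5% between Hba-x and Hba-a2, 74.38% between Hbb-y and Hbb-bs and 73.92% between Hbb-bh1 and Hbb-bs, and no window of that length was shared in any of these pairs. The same exon of the embryonic genes is printed for comparison, with no base in capitals.
Hba-x (chr11:32277880-32278005, plus strand): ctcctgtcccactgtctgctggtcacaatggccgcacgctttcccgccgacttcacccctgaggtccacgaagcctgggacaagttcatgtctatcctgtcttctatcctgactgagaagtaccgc
Hbb-y (chr7:103851877-103852002, minus strand): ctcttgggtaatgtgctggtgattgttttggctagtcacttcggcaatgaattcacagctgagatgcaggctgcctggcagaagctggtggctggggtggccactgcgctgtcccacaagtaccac
Hbb-bh1 (chr7:103841755-103841880, minus strand): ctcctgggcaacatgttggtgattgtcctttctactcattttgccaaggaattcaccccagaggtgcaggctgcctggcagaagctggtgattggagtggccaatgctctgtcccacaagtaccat

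Because Alas2 and the globin copies varied together across libraries, as described further on, the stretches upstream of Hba-a2 and Alas2 that lie outside every annotated transcript are printed (RefSeq starts, GRCm38.p6, plus strand). Capitals mark matches on either strand to the CCAAT box, to the CACCC box, to the TATAA box and to the letters GATAA, which GATA factors bind. No match overlapped another.
Hba-a2 (chr11:32296342-32296488): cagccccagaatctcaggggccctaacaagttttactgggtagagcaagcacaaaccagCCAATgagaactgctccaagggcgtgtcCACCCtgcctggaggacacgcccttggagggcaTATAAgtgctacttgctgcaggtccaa
Alas2 (chrX:150547267-150547374): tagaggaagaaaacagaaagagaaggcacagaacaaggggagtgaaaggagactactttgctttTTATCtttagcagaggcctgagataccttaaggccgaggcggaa
Hba-a2 held a CCAAT box, a CACCC box and a TATAA box, and the printed Alas2 stretch held GATAA on the reverse strand. The rest of the Alas2 window lies in an annotated transcript and is not printed. It held CACCC on the reverse strand, at -40, -35 and -30 from the start. Among 32851 promoter windows of 150 bases, 24.5% held a CCAAT box, 37.43% a CACCC box, 14.15% a TATAA box and 13.35% the letters GATAA, so these matches are a description of the letters only. Over 247 aligned bases upstream of the RefSeq starts, Hba-a1 and Hba-a2 were identical.

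The Hba copies were among the more abundant transcripts of a brain library, at 391 to 1074 TPM in the 28 libraries. Nearly all of their counts stood on the Hba-a2 row: Hba-a1 held 345 of 175258 counts (0.197%, exact binomial 95% interval 0.177 to 0.219%, counting error only), or 5 to 30 counts per library. The deposited exon length was 266 bases for Hba-a1 and 993 for Hba-a2, so the rows did not cover like stretches. At E18.5 the Hba copies were at 896, 1027, 432, 711, 391 and 513 TPM in wt/wt midbrain libraries (replicates 1 to 6, median 612). In hu/hu midbrain libraries they were at 949, 1074, 645, 890, 524 and 482 TPM (median 767). Replicates 1, 2 and 4 stood above replicates 3, 5 and 6 in both genotypes. In P21 midbrain the wt/wt libraries were at 705, 758, 559 and 804 TPM and the hu/hu libraries at 546, 749, 689 and 714 TPM (replicates 1 to 4). In P21 cortex the wt/wt libraries were at 474, 819, 529 and 527 TPM and the hu/hu libraries at 636, 730, 551 and 655 TPM. The genotypes overlapped in every age and region, and 1 wt/wt cortex library, replicate 2, stood above all other cortex libraries.

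The Hbb copies, whose chain pairs with α in adult haemoglobin, ran from 739 to 2358 TPM. The Beta-s row held 81.3% of their counts (77.6% to 83.4% by library), Hbb-b1 9.04% and Hbb-b2 9.65%. At E18.5 the sum was 2119, 2358, 739, 1646, 777 and 946 TPM in wt/wt midbrain libraries (replicates 1 to 6, median 1296). In hu/hu midbrain libraries it was 2116, 2263, 1354, 1805, 795 and 1040 TPM (median 1580). In P21 midbrain it was 1559, 1909, 1327 and 2034 TPM in wt/wt and 1398, 2032, 1579 and 1886 TPM in hu/hu libraries. In P21 cortex it was 1284, 2122, 1382 and 1554 TPM in wt/wt and 1631, 1977, 1422 and 1873 TPM in hu/hu libraries. The genotypes overlapped in all 3 settings, and the library with the most Hba in the cortex also had the most Hbb. The order of α and β levels per length depended on the lengths used: with GENCODE transcript lengths of 554 bases for Hba and 628 for Hbb the E18.5 hu/hu means became 1355 and 1294 TPM, against 761 and 1562 TPM with the deposited lengths. No order between α and β mRNA is therefore given.

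Alas2 was present in every library, at 201 to 1102 counts. At E18.5 it was 28.6, 37.9, 16.5, 24.5, 13.5 and 16.3 TPM in wt/wt midbrain libraries (replicates 1 to 6, median 20.5). In hu/hu midbrain libraries it was 29.5, 36.9, 27.6, 26.9, 17.2 and 13.6 TPM (median 27.3). In P21 midbrain it was 27.3, 33.6, 20.3 and 41.5 TPM in wt/wt and 26.3, 35.5, 34.9 and 37.9 TPM in hu/hu libraries. In P21 cortex it was 21.1, 34.5, 22.9 and 26.2 TPM in wt/wt and 26.9, 31.9, 22.0 and 28.7 TPM in hu/hu libraries. The 3 P21 midbrain wt/wt libraries other than replicate 3 lay above the E18.5 medians of both genotypes or level with them, and the ages overlapped. E18.5 replicates 1, 2 and 4 of both genotypes and hu/hu replicate 3 lay within the range of P21 midbrain. The remaining E18.5 libraries lay below it. In dissected tissue, fewer red cells and less mRNA per red cell cannot be told apart, and this holds for every level given here. Whether part of these counts came from cells of the tissue other than red cells was not tested either.

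**Figure D1:**
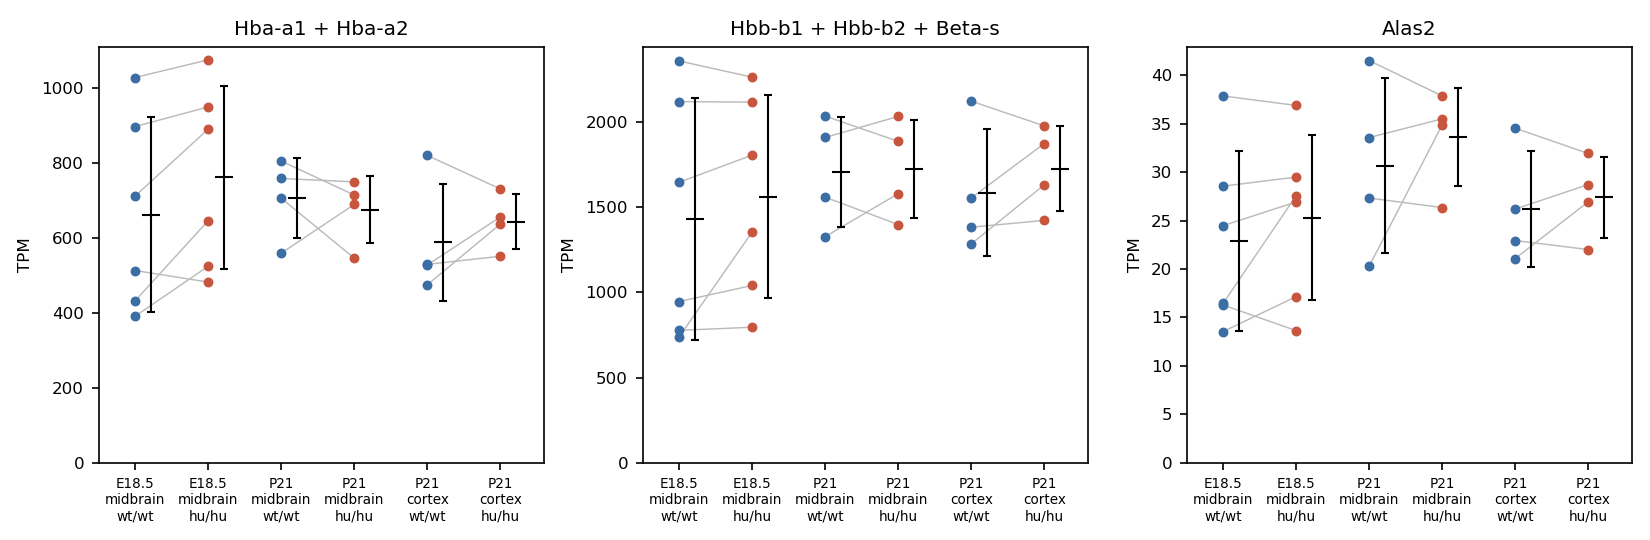
Summed Hba copies, summed Hbb copies and Alas2 in TPM (linear axes from 0) by age, region and genotype. Points are libraries (wt/wt blue, hu/hu red), grey lines join libraries of the same number, and bars show mean ± SD. The E18.5 libraries span the widest range for the Hba copies, 391 to 1074 TPM, and the genotypes overlap in each pair of columns.

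The embryonic globins were close to absent. Hba-x had 0 to 7 counts per library, with 45 counts over the 12 E18.5 libraries, 13 over the 8 P21 midbrain libraries and 1 over the 8 P21 cortex libraries. As a share of all α-like counts this was 0.0764% at E18.5 (exact 95% interval 0.0557 to 0.102%), 0.0206% in P21 midbrain (0.0110 to 0.0352%) and 0.00188% in P21 cortex (4.76e-05 to 0.0105%). Counts pooled over libraries in this way carry no replicate error. At E18.5 the wt/wt libraries 1 to 6 held 7, 5, 4, 0, 2 and 5 Hba-x counts and the hu/hu libraries 7, 7, 2, 0, 1 and 5. In P21 midbrain the counts were 1, 1, 1 and 3 in wt/wt and 1, 0, 0 and 6 in hu/hu. Both genotypes held few reads, and 1 hu/hu library of P21 midbrain, replicate 4, supplied 6 of that region's 13.

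Hbb-y had 0 to 9 counts and Hbb-bh1 0 to 4. Together they made 0.0645% of β-like counts at E18.5 (0.0465 to 0.0871%), with 0.0140% for P21 midbrain and 0.0117% for P21 cortex. The highest Hbb-y counts, 8 and 9, were those of E18.5 hu/hu replicates 3 and 5, while the other hu/hu libraries of that age held 0 to 2 and the wt/wt libraries 0 to 4. Hbb-y was at 0 in all 4 P21 midbrain hu/hu libraries, and Hba-x and Hbb-bh1 were at 0 in all 4 P21 cortex hu/hu libraries. A library with 0 counts allows up to 3, which in P21 midbrain hu/hu is at most 0.329 to 0.445 TPM of Hbb-y. None of the 3 embryonic genes passed the filter on low counts in any comparison, so no fold change or test is given for them.

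**Figure D2:**
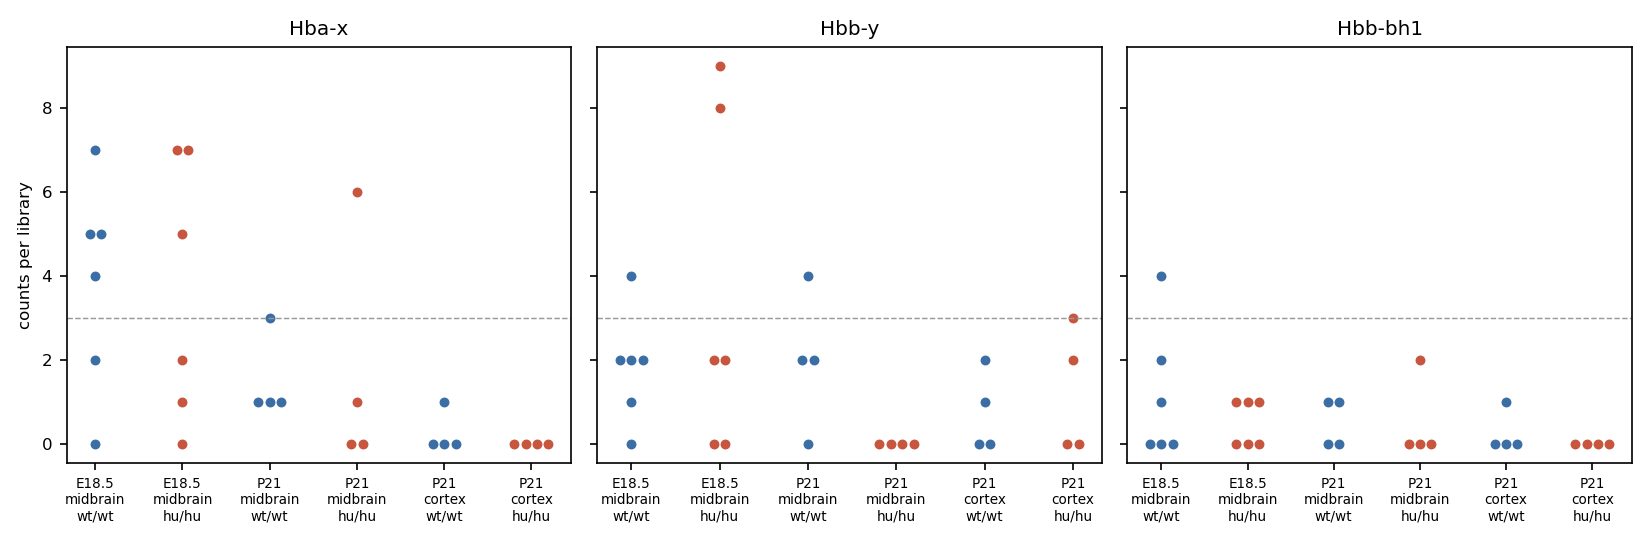
Counts per library of Hba-x, Hbb-y and Hbb-bh1 by age, region and genotype (each point 1 library, wt/wt blue, hu/hu red; dashed line at 3 counts, the most that a count of 0 allows). Hba-x reaches 7 counts in E18.5 libraries of both genotypes and at most 1 in the cortex.

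The first comparison asks whether the humanized allele went with a different content of red cell transcripts. It did not reach the threshold for any of these genes. At E18.5 the fitted log2 fold change of hu/hu over wt/wt was 0.19 for the Hba copies (95% interval -0.32 to 0.70), 0.12 for the Hbb copies (-0.50 to 0.74) and 0.13 for Alas2 (-0.40 to 0.66). In P21 midbrain the values were -0.06 (-0.28 to 0.16), 0.01 (-0.25 to 0.27) and 0.13 (-0.22 to 0.48), and in P21 cortex 0.14 (-0.14 to 0.41), 0.13 (-0.13 to 0.39) and 0.07 (-0.22 to 0.36). All 9 had an adjusted p above 0.999 (edgeR's quasi-likelihood test, Benjamini-Hochberg over all genes tested), and the intervals leave room for changes of the size of their bounds. The filter on low counts kept 4 of the 8 members in P21 cortex and 5 at each age in midbrain, and none was called, where a call needs p below 0.05 and an adjusted p below 0.1. The background was the same: 0% of the 15540, 15972 and 15767 genes tested were called, with 201, 426 and 450 at an unadjusted p below 0.05. DESeq2 called 0, 1 and 0. With edgeR at the same thresholds the study reported Gkn3 as lower in hu/hu P21 midbrain, a gene not called by the fit used here.

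Libraries of the same number deviated from their genotype means together, so hu/hu and wt/wt libraries were treated as paired by number. What the members of a pair share is not given in the labels. The pairs carried much of the spread at E18.5, where the Hba copies differed by up to 2.73-fold between libraries, the Hbb copies by 3.08-fold and Alas2 by 2.76-fold. For the Hba copies the log2 SD there was 0.49 in hu/hu and 0.59 in wt/wt, while the SD of the difference within 6 pairs was 0.25. The hu/hu member was higher in 5 of the 6 pairs. With the replicate block the Hba copies had a log2 fold change of 0.22 (SE 0.058, unadjusted p = 0.0013 and adjusted p = 0.928 by edgeR) and the Hbb copies 0.17 (SE 0.075, adjusted p = 0.931). In P21 cortex the blocked values were 0.16 (SE 0.059, adjusted p = 0.801) for Hba and 0.14 (SE 0.048, adjusted p = 0.785) for Hbb, with hu/hu higher in 3 of 4 pairs for both. In P21 midbrain they were -0.06 (SE 0.067) and 0.01 (SE 0.050), with hu/hu higher in 1 and 2 of 4 pairs. None of these was called with the block. The comparisons of age and of region and the relations between genes that follow took all libraries as independent, so their p-values can be too small. The markers of platelets, neutrophils, leukocytes and endothelium overlapped between genotypes at E18.5 as well (platelets 94.8 to 118 TPM in wt/wt and 95.04 to 120 TPM in hu/hu; neutrophils 3.87 to 11.4 and 4.71 to 16.7 TPM).

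Whether the genotype difference itself changed with age or region was tested by interaction terms. At P21 against E18.5 in midbrain the difference in log2 fold change was -0.25 (95% interval -0.94 to 0.44) for the Hba copies, -0.10 (-0.95 to 0.74) for the Hbb copies and 0.01 (-0.74 to 0.75) for Alas2. Between P21 cortex and midbrain it was 0.19 (-0.20 to 0.59), 0.11 (-0.31 to 0.53) and -0.06 (-0.56 to 0.44). None of the 5 members tested was called, and neither was any other gene (0% of 16330 and of 16345 genes; edgeR).

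The second comparison set P21 midbrain against E18.5 midbrain, over 20 libraries with genotype as a term. Alas2 rose: its log2 fold change was 0.64 (SE 0.18, 95% interval 0.27 to 0.999, edgeR adjusted p = 0.00178), a 1.55-fold higher level at P21. That fit took the 20 libraries as independent, although same-numbered libraries of an age varied together, so its SE and p can be too small. With the replicate block the estimate was smaller, as given in the last section. Fits within a single genotype hold no such pairs, and Alas2 was called in wt/wt libraries alone (0.63) and in hu/hu libraries alone (0.65). The Hba copies did not pass, at 0.17 (-0.18 to 0.51, adjusted p = 0.349). The Hbb copies passed narrowly, at 0.44 (0.03 to 0.85, adjusted p = 0.0436), through the Beta-s row (0.50, SE 0.19, adjusted p = 0.0206), while Hbb-b1 (0.16, SE 0.22) and Hbb-b2 (0.27, SE 0.23) did not pass. That call was lost when Beta-s was left out of the sum (0.21, adjusted p = 0.377), within wt/wt (0.49, adjusted p = 0.112) and within hu/hu libraries (0.40, adjusted p = 0.113), and on leaving out 10 of the 20 libraries 1 at a time, namely replicates 3, 5 and 6 of both genotypes at E18.5 and replicates 2 and 4 of both genotypes at P21 (range over all 20 left out in turn 0.37 to 0.53, adjusted p up to 0.0845).

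Of the 5 members tested across age, 1 was called, Alas2, whereas 85.9% of the 16100 genes tested were called (42.6% higher and 43.2% lower at P21). These values are relative to TMM scaling, which sets the median gene at -0.01; on library totals alone that median was -0.17, the Hba copies were at 0.01, the Hbb copies at 0.28 (adjusted p = 0.191) and Alas2 at 0.48 (adjusted p = 0.0157). Brain endothelium markers summed to 386 to 527 TPM at E18.5 and 583 to 637 TPM in P21 midbrain, leukocyte markers to 1.54 to 3.37 and 2.45 to 4.15 TPM, and neutrophil markers overlapped; their part in the Alas2 difference was not tested. Age and the processing of each age's libraries cannot be told apart.

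The third comparison set P21 cortex against P21 midbrain over 16 libraries. The Hba copies (log2 fold change -0.09, 95% interval -0.29 to 0.11, adjusted p = 0.395) and the Hbb copies (0.02, -0.19 to 0.22, adjusted p = 0.886) did not pass, and neither did Alas2 (-0.19, -0.44 to 0.05, adjusted p = 0.140). The intervals of both globin sums hold changes of at most 0.29 in log2 in either direction. Of the 5 members tested 1 was called, Hba-a1, lower in cortex by a log2 fold change of -0.58 (-1.08 to -0.08, edgeR adjusted p = 0.0342), against 76% of 16129 genes (37.9% higher and 38.1% lower in cortex). That row holds 5 to 16 counts in cortex and 11 to 30 in midbrain libraries, and the coding sequence of Hba-a1 is nearly that of Hba-a2. Its call was lost without P21 cortex hu/hu replicate 4 or P21 midbrain wt/wt replicate 4 (log2 fold changes from -0.71 to -0.46 over all libraries left out in turn). Without P21 cortex wt/wt replicate 2, the library highest in Hba, the Hba copies were called lower in cortex at -0.17 and Alas2 at -0.27, and Alas2 was also called without P21 midbrain wt/wt replicate 3.

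Ratios of counts within a library do not depend on the scaling between libraries. The Hba over Hbb count ratio was 0.949 ± 0.143 (SD, n = 6) in hu/hu and 0.918 ± 0.112 (n = 6) in wt/wt E18.5 midbrain, and 0.730 ± 0.0619 and 0.767 ± 0.0480 (n = 4 each) in P21 midbrain. In P21 cortex it was 0.694 ± 0.0363 in hu/hu and 0.687 ± 0.0407 in wt/wt (n = 4 each). Between the ages the log2 ratio fell by 0.31 at P21, and the p from a two-sided exact permutation test was 0.000111 (adjusted over 10 ratio tests, p = 0.000873). As with the level of the Hbb copies this rested on the Beta-s row, since without it the difference was -0.11 (exact permutation p = 0.315). Within wt/wt libraries it was -0.25 (adjusted p = 0.127, exact permutation, not called) and within hu/hu libraries -0.37. Cortex lay below midbrain by a log2 difference of -0.12 (exact permutation p = 0.0258, adjusted p = 0.0860). That difference was -0.16 without Beta-s (exact permutation p = 0.00140), and within genotypes it was -0.16 in wt/wt (exact permutation p = 0.0286) and -0.07 in hu/hu libraries (exact permutation p = 0.429). It no longer passed on leaving out, 1 at a time, 9 of the 16 libraries: P21 cortex hu/hu 2 and 4, P21 cortex wt/wt 1 and 4, P21 midbrain hu/hu 3 and any P21 midbrain wt/wt library (-0.14 to -0.09, adjusted p up to 0.172).

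The Alas2 over Hba ratio rose with age in both genotypes. It was 0.0667 ± 0.0101 in hu/hu and 0.0694 ± 0.00516 in wt/wt at E18.5 (SD, n = 6 each), against 0.0999 ± 0.00503 and 0.0857 ± 0.0137 in P21 midbrain (n = 4 each). The log2 difference was 0.44, or 1.36-fold (two-sided exact permutation p = 0.000175, adjusted p = 0.000873). Within wt/wt it was 0.29 (exact permutation p = 0.0286) and within hu/hu 0.59 (exact permutation p = 0.00952). The ages overlapped, since E18.5 hu/hu replicate 3 reached 8.55% while P21 midbrain wt/wt replicates 1 and 3 were at 7.79% and 7.28%. P21 cortex, at 0.0850 ± 0.00355 in hu/hu and 0.0899 ± 0.00670 in wt/wt, did not differ from P21 midbrain past the threshold (-0.08, exact permutation p = 0.332). The genotypes went opposite ways here, at 0.079 in wt/wt (exact permutation p = 0.571) and -0.23 in hu/hu libraries (exact permutation p = 0.0286, adjusted p = 0.0714, past the threshold), and the difference between them was not tested. Between genotypes neither ratio passed in any of the 3 settings; the widest difference was Alas2 over Hba in P21 midbrain, 0.23 higher in hu/hu and higher in 4 of 4 pairs (exact permutation p = 0.114, adjusted p = 0.286). With 4 pairs the paired test cannot go below 0.125.

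**Figure D3:**
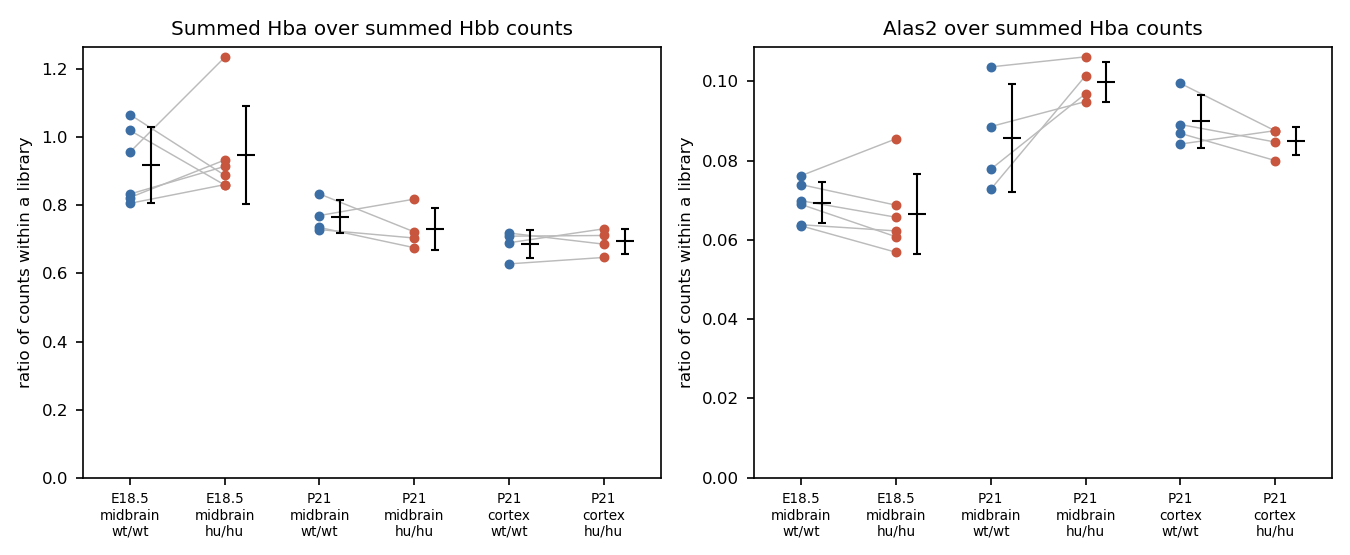
Ratios of counts within each library (linear axes from 0) by age, region and genotype, with lines joining libraries of the same number and bars showing mean ± SD. Hba over Hbb is highest at E18.5, where 1 hu/hu library reaches 1.23, and Alas2 over Hba is lowest there, at means of 0.0667 and 0.0694.

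Alas2, Hba and Hbb rose and fell together from library to library. At E18.5 (12 libraries) Pearson's r of log2 CPM (counts scaled by library total) was 0.97 between the Hba and Hbb copies (permutation p = 2e-05, the smallest that the resampling could give), 0.96 between Hba and Alas2 (permutation p = 4e-05) and 0.93 between Hbb and Alas2 (permutation p = 0.000280). Spearman's rho was 0.96, 0.97 and 0.92. In P21 cortex (8 libraries) r was 0.96, 0.94 and 0.98, with an exact permutation p of 0.000446, 0.00104 and 9.92e-05. In P21 midbrain (8 libraries) r was 0.91, 0.85 and 0.87, with an exact permutation p of 0.00109, 0.0170 and 0.00600. Adjusted over the 9 relations the largest p was 0.0170. Without the 2 libraries farthest from the median of the first gene, r stayed at 0.85 or above in every relation except Hba with Alas2 (0.59) and Hbb with Alas2 (0.69) in P21 midbrain, which rest on those libraries. With each genotype centred r was 0.89 to 0.99 over the 9 relations. The permutations took libraries as independent, although same-numbered libraries varied together, so the p-values can be too small. No r with each pair centred is given. At E18.5 the relations also span the gap in Hba level between replicates 1, 2 and 4 and replicates 3, 5 and 6.

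**Figure D4:**
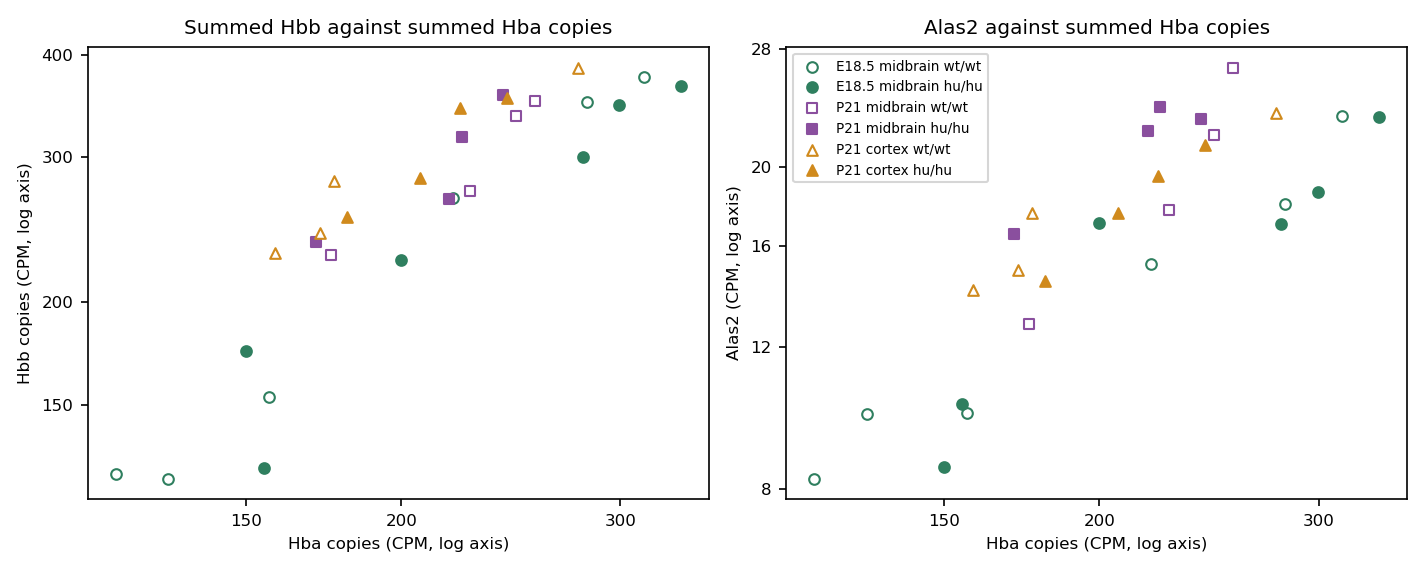
Summed Hbb copies (left) and Alas2 (right) against summed Hba copies, in CPM on log axes. Each point is a library, marked by age and region, filled for hu/hu and open for wt/wt. Points of each age and region rise together, and for Alas2 some E18.5 and P21 libraries of like Hba level overlap.

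Among 15023 other genes tested in all settings, the pattern most like that of the 4 listed adult globin rows, after centring each of the 6 groups over 28 libraries, was that of Pbx3 (r = 0.81), Ina (0.80) and Dhx29 (0.79). Fam192a (0.77), Hnrnph1 (0.74), 2210018M11Rik (0.74), Cnot8 (0.74), Bpgm (0.74), Exosc7 (0.74) and 9130401M01Rik (0.73) completed the top 10. Of these, Bpgm makes the red cell metabolite that lowers the oxygen affinity of haemoglobin, while Ina encodes a neuronal intermediate filament and Pbx3 a homeodomain factor. The likeness was not held in every setting: Dhx29 had r = -0.45 in P21 cortex and Bpgm r = -0.59 in P21 midbrain. Libraries share depth and tissue composition, and the 99th percentile over all genes was 0.63. Alas2 itself reached 0.94, with 0.95 at E18.5, 0.96 in P21 cortex and 0.94 in P21 midbrain. Slc4a1, the red cell anion exchanger band 3, named after its values were seen, reached 0.70, with only 0.13 in P21 midbrain.

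Erythroid transcription factors differed widely in level. Of 12 erythroid transcription factors 4 fell below the filter in the age comparison: Gata1 (0 to 4 counts, at 0 in 13 of 28 libraries), Klf1 (0 to 13), Nfe2 (0 to 13) and Gfi1b (0 to 3, at 0 in 24). These 4 stand outside the naming rule. The other 8 were tested, among them Zbtb7a, Bcl11a and Tal1, with group means of 9.18 to 51.1, 3.88 to 22.8 and 1.34 to 20.1 TPM. Of the 8 tested, 3 rose and 5 fell at P21, with a median log2 fold change of -0.28 against -0.01 for all genes. Over all genes tested, 42.6% were called higher and 43.2% lower at P21. Zbtb7a, a silencer of fetal globin, rose by 2.64 (SE 0.046), Bcl11a, a repressor of embryonic and fetal globin genes that is also a cortical neuron factor, fell by 2.04 (SE 0.052), and Tal1 fell by 1.43 (SE 0.065); each is also active outside the erythroid lineage. In cortex against midbrain 4 of 8 were called higher and 2 lower, against 37.9% and 38.1% of all genes tested. None of the list was called between genotypes.

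Of the other 8 haem synthesis enzymes, which serve every cell and not red cells alone, 5 rose and 2 fell at P21 (median 0.31). The shares over all genes tested were 42.6% higher and 43.2% lower with age, and 37.9% and 38.1% in cortex against midbrain. Cpox rose by 2.42 (SE 0.055), Urod by 1.34 (SE 0.044) and Fech, which inserts the iron, by 1.07 (SE 0.043). In cortex against midbrain 4 were called higher and 3 lower, and Fech stood at -0.01 (SE 0.032). Of 14 tested red cell membrane and skeleton genes 7 rose and 4 fell with age (median 0.39). Tmod1 rose by 2.50 (SE 0.063), Ank1 by 2.31 (SE 0.060) and Spnb1 (erythroid β spectrin) by 1.09 (SE 0.042), all 3 being also skeleton proteins of neurons. In cortex 7 of 16 were called higher and 6 lower, with Ank1 at -2.06 (SE 0.042). Slc4a1, of red cells and kidney and again named after its values were seen, was 1.25 (SE 0.21) higher at P21 and -0.62 (SE 0.16) in cortex against midbrain, with edgeR adjusted p = 5.24e-06 and adjusted p = 0.00164.

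Of 20 tested genes of iron uptake, red cell enzymes and the erythropoietin receptor 13 rose and 5 fell at P21 (median 0.50). Car2, carbonic anhydrase II of red cells and of oligodendrocytes, rose by 3.45 (SE 0.092), the mitochondrial iron carrier Slc25a37 by 1.60 (SE 0.072), while the porphyrin transporter Abcb6 fell by 0.69 on the log2 scale (SE 0.046). In cortex 7 of 21 were called higher and 11 lower. Among the other globin genes 4 of 6 tested rose and none fell (median 0.86); Beta-s is 1 of the 4. The remaining 3 are the globins of other tissues: cytoglobin (Cygb) rose by 2.09 (SE 0.054), neuroglobin (Ngb) by 1.92 (SE 0.099) and myoglobin (Mb) by 1.20 (SE 0.19). Each was lower in P21 cortex than in midbrain, by -0.97 (SE 0.038), -1.05 (SE 0.072) and -1.62 (SE 0.24), whereas the haemoglobin sums did not differ there past the threshold. Mean Ngb was 22.7 to 25.4 TPM in P21 midbrain and 10.8 to 11.2 TPM in cortex. Of 9 tested genes that clear haemoglobin, haem and iron 5 rose and 3 fell at P21 (median 0.48), among them Fth1 (2.19, SE 0.043), Ftl1 (-1.51, SE 0.039) and Hmox2 (0.995, SE 0.042). In cortex 2 of 10 were called higher and 5 lower. No gene of these lists was called between genotypes, and the lists' counts stand against the background of 85.9% called with age and 76% with region.

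**Figure D5:**
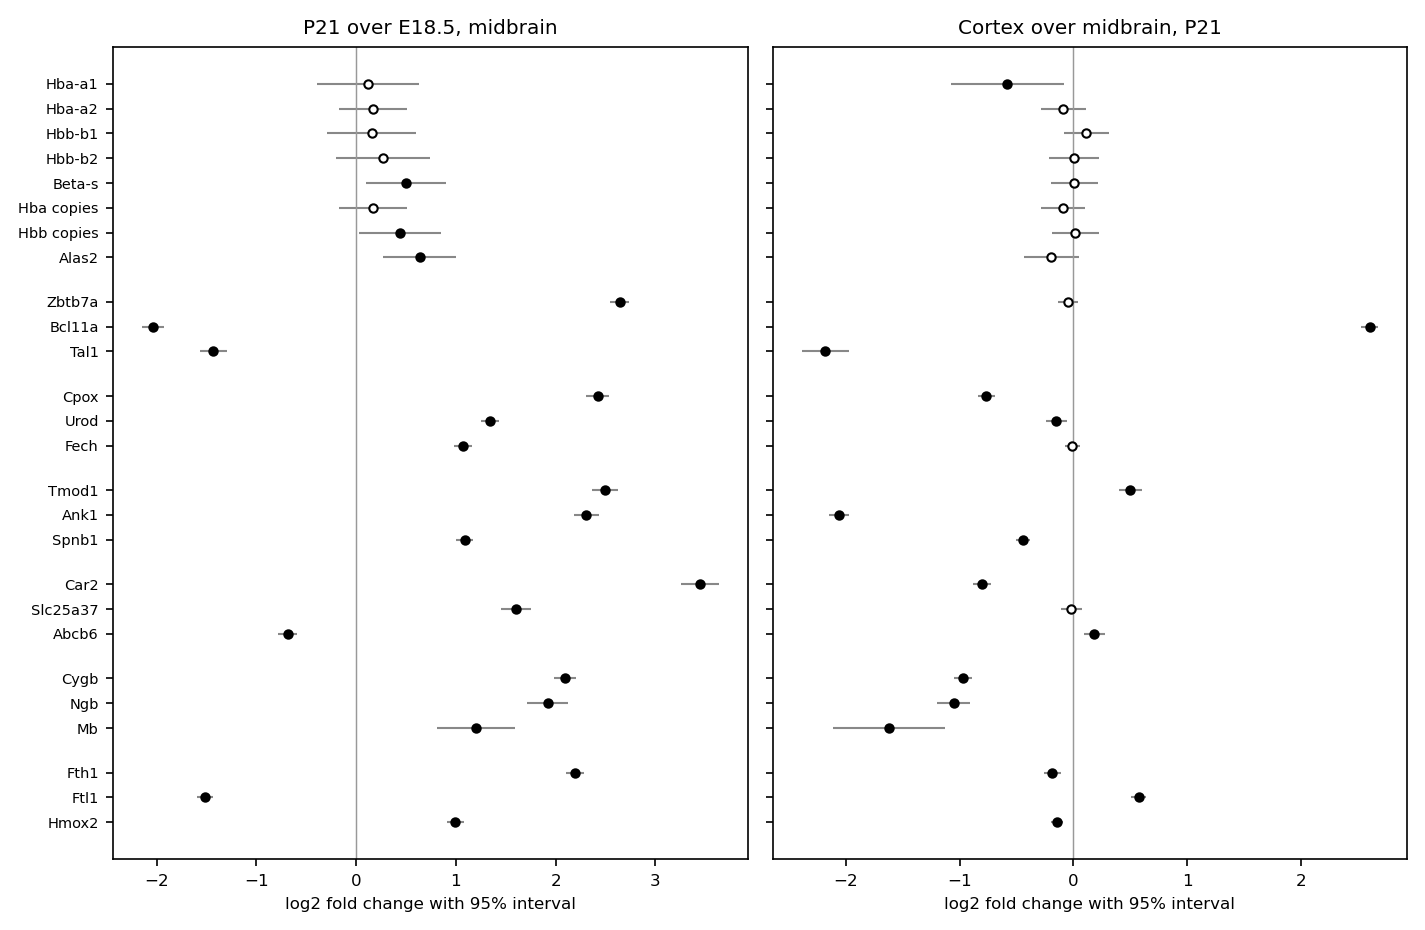
log2 fold changes with 95% intervals of the members, their sums and the named genes of each list, for P21 over E18.5 midbrain (left) and P21 cortex over P21 midbrain (right). Filled points passed the threshold (p below 0.05, adjusted p below 0.1). The globin rows and sums lie between -0.58 (Hba-a1 in cortex over midbrain) and 0.50 (Beta-s at P21 over E18.5).

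Markers of white blood cells were low in the same libraries. The 9 neutrophil markers summed to 2.94 to 21.4 TPM and the 8 leukocyte markers to 1.54 to 5.15 TPM, with Elane at 0 in 22 of 28 libraries, Nkg7 in 21 and Cd3e in 12. The 9 platelet markers summed to 90.5 to 120 TPM in midbrain and 264 to 313 TPM in cortex, and the sum was mostly Gp1bb, at 79.5 to 91.1 TPM in midbrain and 282 to 286 TPM in cortex by group mean. Pf4, another of the 9 listed, had group means of 19.8 to 20.9 TPM at E18.5, 5.40 to 6.34 TPM in P21 midbrain and 5.12 to 6.37 TPM in P21 cortex. The list did not move as 1: Itga2b and Gp1ba were also higher at E18.5, whereas Gp5 and Gp9 were higher at P21. Gp5 rose from 0.241 and 0.273 TPM at E18.5 to 1.18 and 1.19 TPM in P21 midbrain. Ppbp, Gp6 and Treml1 had group means of at most 0.328, 0.0799 and 0.411 TPM. The list sum is therefore no measure of platelets. The gap between the globin sums and the platelet list was narrowest in P21 cortex, where wt/wt replicate 1 held 299 TPM of platelet markers and 474 TPM of the Hba copies. The part of these cells in the globin levels was not tested.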

How the data were processed

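RNA from dissected brain was polyA-selected and sequenced as paired-end reads. Per the study's methods the authors used OLego for alignment to mm10 and Quantas for gene counts. The deposited tables give an estimated count for each gene that is not always whole, the exon length used, and an RPKM value, which the authors computed from that count, the exon length and the library total. RPKM was used only to check that relation. The gene annotation and its version are not given in the sources used here.

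From these, counts were rounded and tested with edgeR 4.0.16 (TMM factors, filterByExpr, quasi-likelihood test, Benjamini-Hochberg adjustment; R 4.3.3), with DESeq2 1.42.0 as an alternative, and the fitting code was tested on simulated data. TPM was computed from unrounded counts and the deposited exon lengths. Ratios and relations used permutation tests (scipy 1.17.1), with log2 CPM at a prior count of 2. Named genes are the 8 members, the 3 genes of each list with the smallest p in the age comparison, and the 10 most like the adult globins. The members and gene lists were chosen with earlier results of these data known.

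Libraries of the 2 genotypes with the same number deviated from their group means together within each age and region (r from 0.252 to 0.499 over 14 pairs, all above 0.1). They were treated as pairs in the replicate block. Intervals of shares and limits from a count of 0 cover counting error only.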

Additional observations from a re-analysis of the deposited data

Results flagged for a closer look

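Within the 6 groups, 78 sets of member values were screened for a single library far from the others (Dixon's gap ratio at the 95% level), and 7 were past the limit; chance passes about 1 in 20. P21 cortex wt/wt replicate 2 stood apart in the Hba copies, at 819 TPM with the next library at 529, and in Hba-a2 alone, at 817 TPM with the next at 525. E18.5 midbrain hu/hu replicate 5 had a log2 Hba over Hbb ratio of 0.304, with the next at -0.0998. The other 4 are single low counts of embryonic genes. Hba-x reached 0.822 TPM in P21 midbrain hu/hu replicate 4, with the next library at 0.139, and 0.15 TPM in P21 cortex wt/wt replicate 3, where the other 3 were at 0. Hbb-bh1 reached 0.1 TPM in P21 cortex wt/wt replicate 2 and 0.141 TPM in P21 midbrain hu/hu replicate 2, with the other 3 libraries at 0 in both groups.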

How the results depend on the processing

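Apart from leaving out libraries, 873 values were recomputed under another setting and 831 kept their direction and their side of the threshold (counts, within 1.5 times; levels, within 1 SD). Between genotypes the replicate block called 4 genes and DESeq2 1 in P21 midbrain, none of them a globin gene or Alas2, against 0. On library totals without scaling factors (chosen after seeing the data) the Hbb copies turned to -0.013 there. With age the Hbb call was lost without Beta-s (0.21), on library totals (0.28), in wt/wt (0.49) and in hu/hu libraries alone (0.40). On library totals Hba-a1 turned to -0.038 and Hbb-b1 to -0.0041, and in hu/hu alone Hba-a1 to -0.16. Hba over Hbb lost its call with age in wt/wt alone (-0.25, adjusted p = 0.127, exact permutation) and without Beta-s (-0.11), and with region in hu/hu alone (-0.071). Beta-s with age lost its call on library totals (0.34), in wt/wt (0.55) and in hu/hu alone (0.45), and Hba-a1 with region in wt/wt (-0.75) and in hu/hu alone (-0.40). With region the Hba copies and Hba-a2 turned to 0.012 and 0.013 in hu/hu alone, where Fech turned to 0.029, and in wt/wt alone the Hbb copies, Hbb-b2, Beta-s and Slc25a37 turned to -0.041, -0.022, -0.058 and 0.029; on library totals Hbb-b2 and Beta-s turned to -0.0074 and -0.00706. Alas2 over Hba with region was 0.079 in wt/wt and -0.23 in hu/hu alone, the latter called. Except for the removal of Beta-s and of one genotype's libraries, the cause was not tested.

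Across regions no same-numbered pair deviated together at r above 0.1 (r from -0.28 to -0.16), while the median r of the other pairs was 0.156. Whether cortex and midbrain of the same mouse stand under different numbers was not tested. Across ages 6 of 8 same-numbered pairs passed 0.1 (r from -0.23 to 0.26), although their mice must differ, so that cutoff alone does not show what libraries share. With the replicate block across ages, Alas2 was 0.39 and Beta-s 0.27, both called. The Hbb copies were then 0.22 (adjusted p = 0.0649 by edgeR, not called), and the Hba copies (-0.019), Hba-a1 (-0.011), Hba-a2 (-0.020) and Hbb-b1 (-0.048) turned sign. Within genotype pairs the block changed no call of a member.

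Leaving out each library in turn gave 1452 values, of which 1385 kept direction and side. Those that did not, with their ranges, were, between genotypes, the Hbb copies (-0.014 to 0.30) and Alas2 (-0.0024 to 0.33) at E18.5, the Hba copies (-0.16 to 0.033), Hbb copies (-0.088 to 0.10) and Alas2 (-0.023 to 0.31) in P21 midbrain, Alas2 (-0.018 to 0.23) in P21 cortex, and Hba over Hbb at E18.5 (-0.034 to 0.090) and in P21 cortex (-0.026 to 0.049). With age these were the Hbb copies (0.37 to 0.53) and Hba-a1 (-0.022 to 0.20). With region they were the Hba copies (-0.17 to -0.042), Hbb copies (-0.057 to 0.063), Hbb-b2 (-0.071 to 0.058), Beta-s (-0.067 to 0.055), Fech (-0.024 to 0.0038), Slc25a37 (-0.031 to 0.00033), Hba over Hbb (-0.14 to -0.093), and the calls of Hba-a2, Hba-a1 and Alas2. GENCODE lengths moved all 6 Hba means and 1 of 6 Hbb means by over 1 SD. Of the 10 genes most like the globins 7 stayed in the top 10 with Beta-s in the sum. The embryonic genes, at 0 to 9 counts per library, were too few to test.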
